A study of Drosophila melanogaster with 4 samples.

Results

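Gene expression in adult male Drosophila melanogaster homozygous for an allele of Ago2 was set against that in males heterozygous for the same allele, over 2 independent alleles. The homozygotes were V966M/V966M and 51B/51B. The heterozygotes carried V966M over the balancer TM3,twi-GFP,Sb,Ser, or 51B over the balancer TM3,Ser,y+. All flies were males of 0 to 16 hr of adult age grown at 25 °C, and RNA came from males as labelled, with no tissue named. A gene entered when its quantification status was OK in all 4 genotypes and its mean level was at least 1 FPKM, the deposited unit of fragments corrected for gene length and for library size. This left 10872 of the 13990 genes in the deposited table. Each genotype had 1 value per gene, although the design text speaks of 2 sequencing runs per genotype, so the 2 alleles served as the 2 replicates. Wherever a pair of values is given for a genotype class, the V966M value stands before the 51B value.

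Both heterozygotes carry TM3, and neither homozygote does. A difference between homozygotes and heterozygotes therefore sets 2 mutant copies without a balancer against 1 mutant copy with one, and the effects of zygosity and of the balancer cannot be told apart. Each allele is also represented by 1 stock.

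AGO2 is an Argonaute protein. It binds small interfering RNAs (siRNAs), made by Dcr-2 with its partner r2d2 from long double-stranded RNA, and cuts matching RNAs of viruses, transposons and some host genes. In flies it has also been studied at chromatin, in insulator function and in heterochromatin, the compact, repeat-rich part of the genome around centromeres and over most of the small chromosome 4. Balancers are multiply inverted chromosomes that block crossing over, so that a mutation can be kept in a stock.

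The effect in one allele was the log2 ratio of homozygote to heterozygote on the log2(FPKM + 1) scale, on which changes of weakly expressed genes appear smaller than they are. Before centring, the median ratio over all genes was -0.25 in V966M and 0.07 in 51B. Each allele's ratios were centred on that median, so values below are relative to the typical gene of the same pair. Summed FPKM came to 523951 and 573226 in the homozygotes, against 645245 and 493829 in the heterozygotes. The interval deposited around each value had a median half-width of 16.6% and 29.2% in the homozygotes, against 24.9% and 15.7% in the heterozygotes, among genes of at least 5 FPKM. Depth is unknown, since FPKM values carry no read counts.

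AGO2 was lower in both homozygotes, by very unequal amounts. It had 101 and 6.33 FPKM in the homozygotes, against 150.0 and 46.5 FPKM in the heterozygotes. The V966M homozygote thus lay above the 51B heterozygote, and the classes overlapped across stocks. After centring, the deposited intervals of AGO2 overlapped within V966M and were separate within 51B. The centred log2 ratios were -0.32 in V966M and -2.77 in 51B, and the mean was -1.55 ± 1.73 (SD, n = 2 alleles; adjusted p = 0.607 by limma with allele as block). AGO2 lies on 3L in a locus it shares with CG7739 (dm3, 15547217 to 15556163), so its value depends on how fragments were divided.

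The rest of the siRNA pathway differed little between homozygotes and heterozygotes. Of the 5 analysed members other than AGO2, 3 were lower in both homozygotes, 1 was higher in both and 1 had opposite signs, where 30.1% of all genes were lower in both and 30.1% higher in both. Dcr-2 had 7.22 and 5.89 FPKM in the homozygotes, against 10.6 and 6.78 FPKM in the heterozygotes, and its ratios of -0.24 and -0.25 were nearly equal (mean -0.25 ± 0.01, SD, n = 2 alleles). The mean ratio was -0.07 for r2d2, 0.15 for loqs, which encodes a double-stranded RNA-binding partner of Dicer, and -0.18 for trsn, which encodes a subunit of the RNase complex C3PO. Trax, the other C3PO subunit gene, had a mean of -0.04 with opposite signs. None of these passed the test. Hen1, which methylates loaded siRNAs, had no usable quantification in 1 genotype.

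Host RNAs that feed or meet the siRNA pathway showed no shared direction. Among 7 hairpin RNAs and known targets of endogenous siRNAs, 1 was higher in both homozygotes, 3 were lower in both and 3 had opposite signs. Over all genes the shares were 30.1%, 30.1% and 39.8%. The target mus308, a DNA repair polymerase gene, had ratios of 0.03 in V966M and 0.74 in 51B, and the hairpin gene CG4068, whose siRNAs match it, had -0.02 and 0.35. CG8289 and CR32207 were lower in both alleles by similar amounts, with means of -0.29 ± 0.03 and -0.21 ± 0.02 (SD, n = 2 alleles). Neither passed the test.

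Across the genome no gene passed the blocked test. At an adjusted p below 0.05, 0 of 10872 genes were called (0%) by limma with allele as block, and the smallest adjusted p was 0.607. At an unadjusted p below 0.05 there were 875 genes (8.05%), of which 274 were higher in homozygotes (2.52%) and 601 lower (5.53%). The fit had 1 residual degree of freedom per gene, and 4.19 from the prior over genes. An exact permutation test of a single gene within alleles cannot give a p below 0.5, and without the allele block not below 0.333. With a pseudocount of 5 FPKM in place of 1 FPKM, 20 genes passed, 8 higher and 12 lower, and with values as deposited 106 passed, 30 higher and 76 lower. On values as deposited the offset between alleles enters every residual, and the prior had infinite degrees of freedom, so no gene's own spread counted.

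The alleles nevertheless agreed in sign more often than they differed. The centred ratio had the same sign in both alleles for 6544 genes (60.2%), with 3272 higher in both homozygotes (30.1%) and 3272 lower in both (30.1%), and opposite signs for 4328 (39.8%). Centring each allele on its median makes the higher and lower counts equal, so their balance is no result. On values as deposited, 448 genes were higher in both homozygotes. Over the 10872 genes, Pearson's r between the alleles was 0.264 and Spearman's rho 0.279. These points are genes of the same 4 libraries and not independent replicates, but the alleles share no library. Only a few large ratios recurred: 2 genes were at least 2-fold higher in both homozygotes (0.0184%), 1 was at least 2-fold lower in both (0.0092%), and 2 were at least 2-fold in opposite directions (0.0184%).

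**Figure D1:**
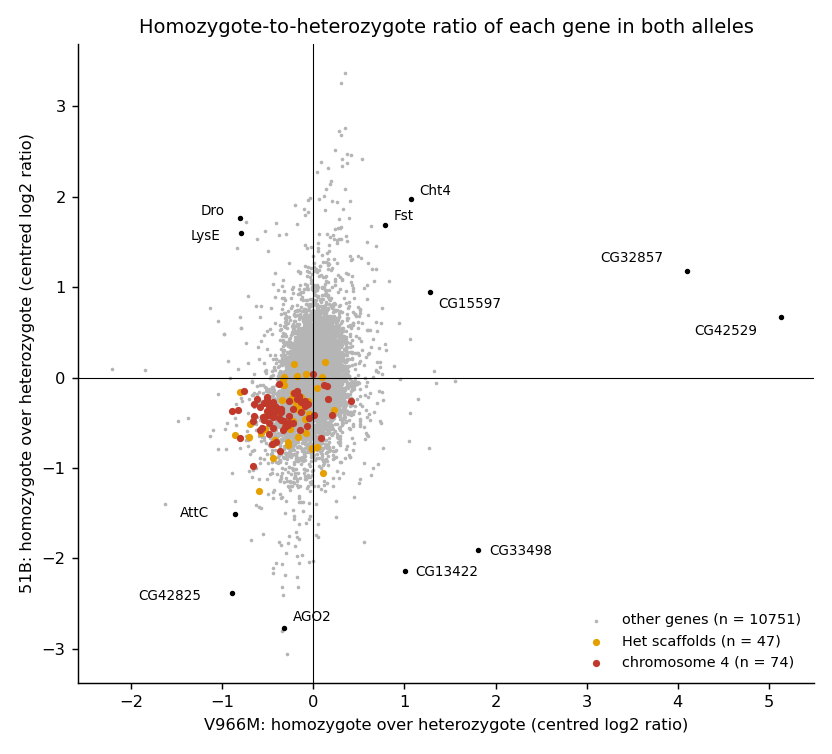
Each point is 1 of 10872 genes, placed by its centred log2 ratio of homozygote over heterozygote in V966M (x axis) and in 51B (y axis). Red points are the 74 genes of chromosome 4 and orange points the 47 genes of the Het scaffolds, most of which lie in the lower left, where both homozygotes are lower.

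When genes were taken by their 51B ratio, the share that agreed was larger among larger ratios. Of 155 genes at least 2-fold higher in the 51B homozygote, 113 (72.9%) were also above 0 in V966M, with a median there of 0.15. For the 157 genes at least 2-fold lower in the 51B homozygote, 128 (81.5%) were also below 0 in V966M, with a median of -0.19. Among genes with 51B ratios under 0.1 in size, the shares were 53.6% for the higher side and 51.7% for the lower side. When genes were taken by their V966M ratio instead, 134 of 165 (81.2%) with a ratio between -1 and -0.5 were also lower in 51B, against 51 of 91 (56.0%) with a ratio between 0.5 and 1 that were also higher. At least 2-fold in V966M, 7 of 11 lower genes (63.6%) and 6 of 14 higher genes (42.9%) agreed in 51B, so on the higher side of V966M the share was no larger among larger ratios, with 60.7% among ratios under 0.1. The differences between these shares were not tested.

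The deposited intervals give another reading of size. After the homozygote's interval was divided by the centring factor of its allele, homozygote and heterozygote intervals did not overlap in either allele for 21 genes higher in both homozygotes (0.193%), 53 lower in both (0.487%) and 24 in opposite directions (0.221%). Within V966M alone, intervals were separate for 59 higher (0.543%) and 158 lower genes (1.45%), and within 51B alone for 616 higher (5.67%) and 603 lower genes (5.55%). Of the 53 genes lower in both, 13 lie on chromosome 4 and 2 on Het scaffolds, and of the 21 higher genes 0 lie on chromosome 4 or the Het scaffolds. With chromosome 4, the Het scaffolds and the centromeric ends of the arms left out, an alternative added after the data had been seen, there were 33 lower genes. On the FPKM values as deposited, both homozygotes lay above both heterozygotes for 210 genes (1.93%) and below both for 1775 (16.3%), shares that the offset of the V966M pair enters. With the homozygotes divided by the centring factor the shares were 11.6% above and 8.5% below, and with all 4 samples scaled by median ratio 13.3% above and 12.5% below, both added after the data had been seen. Overlap between the classes is described below on deposited values, with the genes named for which either scaling ends the separation.

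Chromosome 4 genes were lower in both homozygotes almost throughout. Of 74 analysed genes, 66 were lower in both (89.2%, beside 30.1% of all genes), 0 were higher in both and 8 had opposite signs. The median of the mean ratio was -0.39, and the medians were -0.38 in V966M and -0.38 in 51B, beside 0.00 over all genes. At an unadjusted p below 0.05, 50 of the 74 were lower and 0 higher, beside 5.53% and 2.52% of all genes. The median level of chromosome 4 genes was 8.93 and 6.89 FPKM in the homozygotes, against 14.9 and 8.43 FPKM in the heterozygotes, whereas that of all genes was 10.2 and 11.1 FPKM in the homozygotes, against 12.5 and 10.4 FPKM in the heterozygotes. These genes are long, with 42 of the 71 that have a reference length in the longest of 4 equal length classes of all genes. The 8 genes of opposite sign include ey, an eye-specification transcription factor, and Sox102F, with mean ratios of 0.01 and 0.02.

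**Figure D2:**
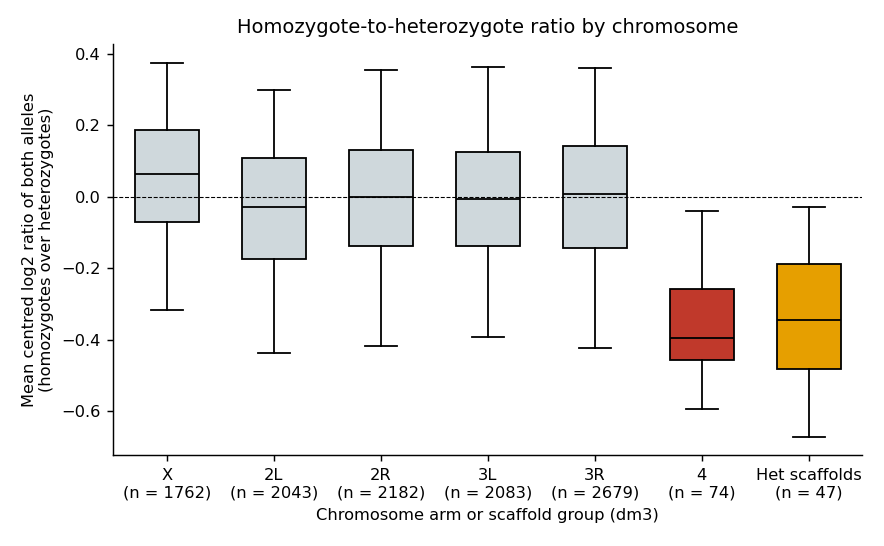
Mean centred log2 ratio of both alleles (y axis, homozygotes over heterozygotes) by chromosome arm or scaffold group (x axis). Boxes span the quartiles around the median and whiskers run from the 5th to the 95th percentile of genes, and the boxes of chromosome 4 and the Het scaffolds, with medians of -0.39 and -0.34, lie wholly below 0.

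Single genes of chromosome 4 showed the pattern in both stocks. The gene myoglianin, which encodes a secreted TGF-beta family ligand, had 10.7 and 6.85 FPKM in the homozygotes, against 23.3 and 10.8 FPKM in the heterozygotes. Its ratios were -0.80 and -0.67 (mean -0.73 ± 0.10, SD, n = 2 alleles; adjusted p = 0.607 by limma). The V966M homozygote lay just under the 51B heterozygote on deposited values, where 16.3% of all genes had both homozygotes below both heterozygotes, and above it once divided by the centring factor. Another TGF-beta ligand gene, mav, had 6.92 and 4.11 FPKM in the homozygotes, against 11.9 and 7.09 FPKM in the heterozygotes, and again the classes were apart as deposited but overlapped with the centring factor. The signalling genes plexA, which encodes a semaphorin receptor, and pan, which encodes the transcription factor of the Wingless pathway, had mean ratios of -0.44 ± 0.10 and -0.35 ± 0.0009 (SD, n = 2 alleles).

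Highly expressed genes of this chromosome took part. RpS3A, a cytosolic ribosomal protein gene, had 406 and 334 FPKM in the homozygotes, against 658 and 468 FPKM in the heterozygotes, with a mean ratio of -0.50 ± 0.08 (SD, n = 2 alleles). Rfabg, which encodes the apolipophorin that carries lipid in the blood, had 41.0 and 19.1 FPKM in the homozygotes, against 77.8 and 36.5 FPKM in the heterozygotes, the lowest mean ratio of the chromosome at -0.82 ± 0.22 (SD, n = 2 alleles). For ATPsyn-beta, a subunit of the mitochondrial ATP synthase, the values were 2623 and 1601 FPKM in the homozygotes, against 3217 and 2066 FPKM in the heterozygotes. Its ratio was -0.05 in V966M and -0.44 in 51B, so it followed the chromosome in 51B but hardly in V966M.

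Genes of the pericentric heterochromatin were lower in both homozygotes as well. The Het scaffolds are stretches of assembly assigned to the heterochromatin of chromosome arms 2, 3 and X, and those of Y were not counted with them. Of 47 analysed genes, 37 were lower in both homozygotes (78.7%), 2 higher in both and 8 of opposite sign. The median of the mean ratio was -0.34, with -0.22 in V966M and -0.39 in 51B. All 14 genes of the 2RHet scaffold were lower in both, with a median of -0.45, and so were 12 of 15 on 3LHet (-0.25), 5 of 6 on 3RHet (-0.44), 4 of 9 on XHet (-0.16) and 2 of 3 on 2LHet (-0.34). The third 2LHet gene, Gpb5, was 1 of the 2 higher in both. The gene uex on 2RHet, a member of a magnesium transporter family, had 5.60 and 4.02 FPKM in the homozygotes, against 13.2 and 6.39 FPKM in the heterozygotes (mean -0.74 ± 0.16, SD, n = 2 alleles). On the same scaffold, rl, the MAP kinase gene, had 8.08 and 5.56 FPKM in the homozygotes, against 12.1 and 9.48 FPKM in the heterozygotes. On 3LHet, vtd, which encodes a cohesin subunit, had 3.41 and 2.67 FPKM in the homozygotes, against 6.82 and 4.32 FPKM in the heterozygotes. In rl and vtd both homozygotes lay below both heterozygotes, as 16.3% of all genes did, in rl no longer so with the centring factor, and neither gene passed the adjusted test.

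The same direction reached into the arms of chromosome 2 next to the centromere. Within 1 Mb of the centromeric end of 2R, 16 of 16 genes were lower in both homozygotes, with a median of -0.38, beside 0.00 over the 2166 genes farther out. On 2L, 23 of 30 were lower in both and 0 higher in both, with a median of -0.26, beside -0.02 farther out. The gene lt, an eye colour gene known for needing a heterochromatic neighbourhood, belongs to this 2L group and had 6.91 and 5.66 FPKM in the homozygotes, against 11.4 and 6.94 FPKM in the heterozygotes. At the 3L end 5 of 7 genes were lower in both. The 83 genes at the 3R end had a median of -0.02 and the 32 at the X end a median of 0.02, close to the rest of their arms. Distances are to the last gene of the arm in the table on 2L, 3L and X and to the first base on 2R and 3R. With chromosome 4, Het and these end genes left out, the share of genes with the same sign was 59.8% and r was 0.247.

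**Figure D3:**
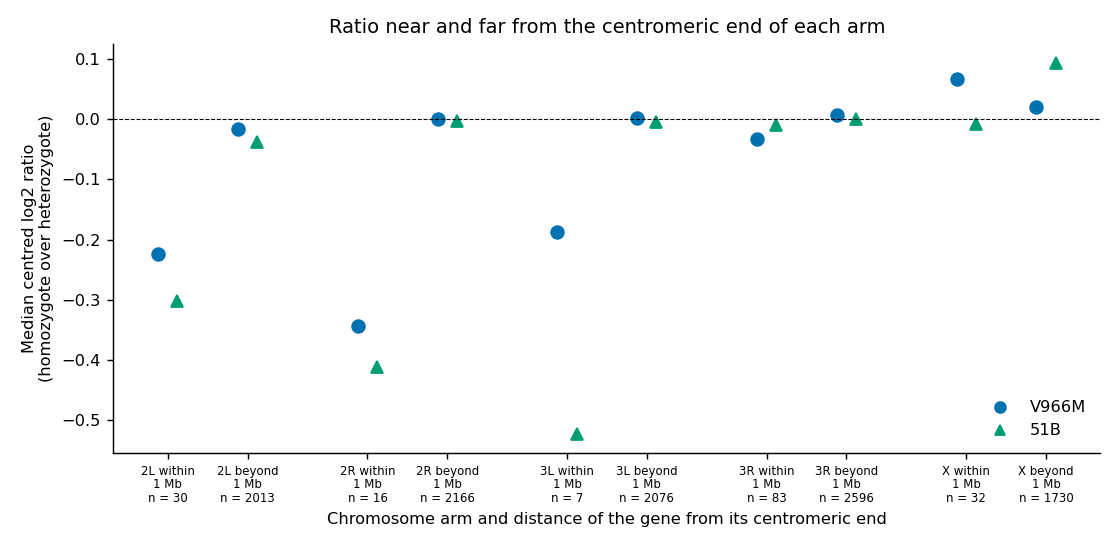
Median centred log2 ratio of homozygote over heterozygote (y axis) in V966M (circles) and 51B (triangles), for genes within 1 Mb of the centromeric end of an arm and for those beyond (x axis, with the number of genes). Both alleles lie below -0.15 at the centromeric ends of 2L, 2R and 3L, and near 0 at those of 3R and X.

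On the X chromosome, genes leaned the other way by a small amount. Of 1762 genes, 682 were higher in both homozygotes (38.7%, beside 30.1% of all genes) and 385 lower in both (21.9%), with a median of 0.06. Males raise the output of their single X through the dosage compensation complex, built from the msl proteins, mle, mof and the non-coding RNAs roX1 and roX2. Of its 7 genes, roX1 stood out, with 60.5 and 51.8 FPKM in the homozygotes, against 113 and 66.0 FPKM in the heterozygotes. On deposited values both homozygotes lay below both heterozygotes, as in 16.3% of all genes, and with the centring factor the classes overlapped. The ratios were -0.64 and -0.42 (mean -0.53 ± 0.15, SD, n = 2 alleles; adjusted p = 0.607 by limma). The partner RNA roX2 had 8.87 and 8.86 FPKM in the homozygotes, against 11.7 and 8.39 FPKM in the heterozygotes, a mean ratio of -0.06. The male-specific RNA roX1 was expressed in all 4 genotypes, and 4 of 19 egg shell and yolk genes reached the minimum mean level. The protein subunits had mean ratios from -0.19 for msl-1 to 0.18 for mof.

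**Figure D4:**
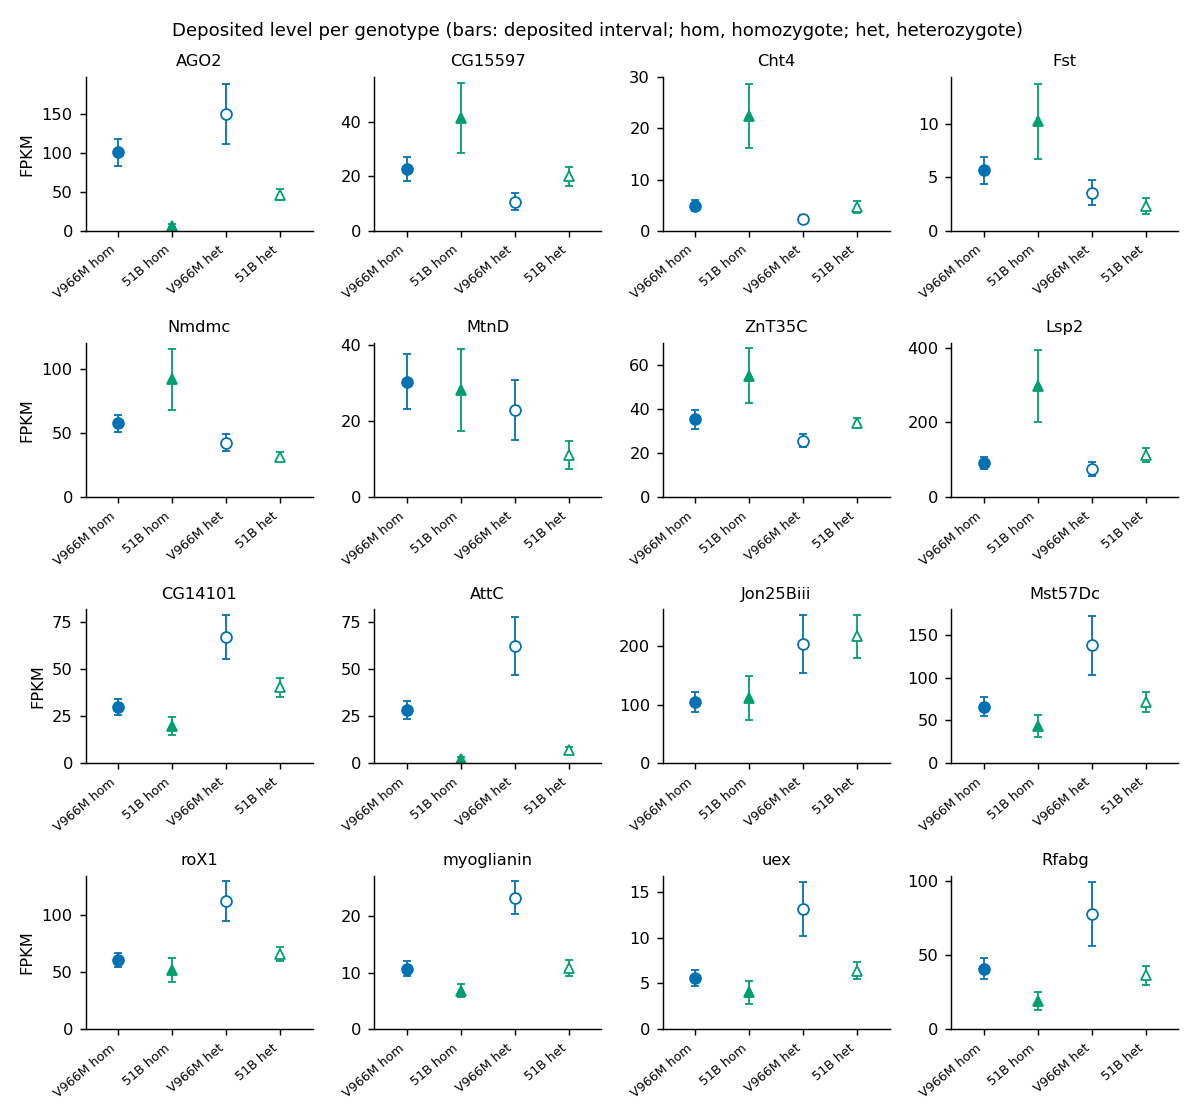
Deposited FPKM per genotype (y axes, starting at 0) for 16 genes, with homozygotes as filled symbols at the left of each panel and heterozygotes as open symbols at the right, circles for V966M and triangles for 51B. Bars are the deposited intervals around the single value of each genotype, and roX1, uex and Jon25Biii show both homozygotes below both heterozygotes on these deposited values, which for roX1 and uex no longer holds with the centring factor.

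Among the genes with the highest ratios in both alleles were a chitinase gene, a cold-response gene and genes of metal handling. By the size of the smaller of both ratios, the 15 highest ran from CG32857 (smaller ratio 1.18) to CG9363 (0.60), with CG11370 next at 0.60, and each had an adjusted p of 0.607. Cht4, a chitinase gene, had 4.86 and 22.4 FPKM in the homozygotes, against 2.32 and 4.65 FPKM in the heterozygotes. Its ratios were 1.07 and 1.98 (mean 1.52 ± 0.64, SD, n = 2 alleles; adjusted p = 0.607 by limma), and within each allele the intervals did not overlap. CG15597 had 22.7 and 41.3 FPKM in the homozygotes, against 10.6 and 19.9 FPKM in the heterozygotes (mean 1.11 ± 0.23, SD, n = 2 alleles). Again all homozygote values exceeded all heterozygote values, as in 1.93% of all genes on deposited values and 11.6% with the centring factor. Cht4 and CG15597 come from the 15 highest by the smaller ratio, a choice that favours such separation.

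Genes of cold response, one-carbon metabolism and metal handling were in this group. Fst, the cold-induced gene Frost, had 5.64 and 10.3 FPKM in the homozygotes, against 3.57 and 2.32 FPKM in the heterozygotes, without overlap. Nmdmc, which encodes the mitochondrial methylenetetrahydrofolate dehydrogenase, had 57.8 and 92.2 FPKM in the homozygotes, against 42.5 and 31.4 FPKM in the heterozygotes (mean 1.07 ± 0.54, SD, n = 2 alleles). MtnD, a metallothionein gene that binds heavy metals, had 30.3 and 28.0 FPKM in the homozygotes, against 22.8 and 11.0 FPKM in the heterozygotes. The zinc transporter gene ZnT35C had 35.3 and 55.3 FPKM in the homozygotes, against 25.7 and 33.8 FPKM in the heterozygotes, with nearly equal ratios of 0.69 and 0.62. Each of these 4 genes had both homozygotes above both heterozygotes, as in 1.93% of all genes as deposited and 11.6% with the centring factor. They were taken from the 15 highest by the smaller ratio, a choice that favours such separation. Fst and Nmdmc share their loci with other genes. The metallothionein genes MtnA, MtnB and MtnC had mean ratios of 0.11, 0.13 and -0.25, so MtnD was the highest of the 4.

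Some entries rest on loci that several genes share. CG32857 had 13.7 and 36.5 FPKM in the homozygotes, against 0.0180 and 14.7 FPKM in the heterozygotes, while CG32500, at the same X locus, was lower in both homozygotes, with 18.1 and 7.46 FPKM, against 34.1 and 20.3 FPKM in the heterozygotes. On 3L, CG42529 had 28.5 and 78.7 FPKM in the homozygotes, against a listed 0 and 46.4 FPKM in the heterozygotes, while CG14101 at the same locus had 29.8 and 19.8 FPKM in the homozygotes, against 66.9 and 40.2 FPKM in the heterozygotes. In both loci one gene was higher and its neighbour lower in the same flies, in both alleles, so how fragments were divided between them cannot be told apart from a change in either.

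Some genes among the 21 with separate intervals on the higher side are described here after their values were seen. They include fru, the male courtship transcription factor gene, with 14.7 and 18.5 FPKM in the homozygotes, against 14.4 and 12.9 FPKM in the heterozygotes, and eag, a potassium channel gene, with 4.86 and 7.34 FPKM in the homozygotes, against 4.82 and 4.06 FPKM in the heterozygotes. Mean ratios were 0.35 ± 0.10 for fru and 0.45 ± 0.27 for eag (SD, n = 2 alleles), and 0.20 for Dscam, 0.31 for Ten-a and 0.32 for Ca-alpha1T. In Dscam, Ten-a and Ca-alpha1T the V966M homozygote lay below its heterozygote as deposited, and above it only after centring. The deposited V966M values were 6.03 and 6.30 FPKM for Dscam, homozygote first, 12.8 and 13.3 for Ten-a, and 13.5 and 14.1 for Ca-alpha1T. As deposited, 6 genes had separate intervals on the higher side in both alleles, against 21 after centring. Of the genes with separate intervals and a reference length, 7 of 19 higher and 21 of 52 lower ones were in the longest of 4 length classes. Over all genes, transcript length moved with the ratio in one allele. With genes split into 4 equal length classes, the 51B median ratio was -0.13 in the shortest and 0.10 in the longest, and the V966M median was -0.02 in the shortest and 0.01 in the longest. The part of length in these ratios was not tested.

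At the other end, snRNA:U1:21D, a gene for the U1 spliceosomal RNA, was the one gene at least 2-fold lower in both homozygotes. It was near 0 in both, with 0.000811 and 0.00176 FPKM in the homozygotes, against 2.68 and 1.51 FPKM in the heterozygotes, so it reached the minimum mean level through the heterozygotes alone, and a low ratio follows from that filter. Its 51B intervals overlapped, and it shares its locus with snRNA:U1:95Ca, another copy, so its value is uncertain. The 15 lowest by the smaller ratio ran from this gene (1.40 in size) to Atf6 (0.68), with CG18530 next at 0.68. Atf6, which encodes a membrane-bound factor of the endoplasmic reticulum stress response, had 3.30 and 2.04 FPKM in the homozygotes, against 7.25 and 3.62 FPKM in the heterozygotes, apart as deposited but not with the centring factor (mean -0.69 ± 0.01, SD, n = 2 alleles). Jon25Biii, a gut serine protease gene of the Jonah family, had 105 and 111 FPKM in the homozygotes, against 203 and 217 FPKM in the heterozygotes. In Jon25Biii the 2 stocks gave nearly the same level in each class. CG6910 and CG15515, with means of -0.71 and -0.77, were also lower in both, and CG40006 (-0.72) lies within 1 Mb of the centromeric end of 2L.

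Seminal fluid genes, made in the male accessory gland and ejaculatory bulb, were mostly lower in both homozygotes. Of 38 analysed members, 28 were lower in both (73.7%, beside 30.1% of all genes), 2 higher in both and 8 opposite. At an unadjusted p below 0.05 by limma, 17 were lower and 0 higher, beside 5.53% and 2.52% of all genes. The median of the mean ratio was -0.41, with -0.22 in V966M and -0.60 in 51B. In bulk samples, fewer cells of a type and less RNA per cell cannot be told apart. Mst57Dc, an accessory gland peptide gene, had 66.0 and 43.6 FPKM in the homozygotes, against 138 and 71.9 FPKM in the heterozygotes (mean -0.80 ± 0.02, SD, n = 2 alleles), and it shares its locus with Sfp96F. Sfp60F had 104 and 71.8 FPKM in the homozygotes, against 185 and 132 FPKM in the heterozygotes. Acp70A, which encodes the sex peptide that alters female behaviour after mating, had 30.0 and 22.9 FPKM in the homozygotes, against 41.7 and 32.7 FPKM in the heterozygotes. On deposited values the classes did not overlap in any of the 3, as in 16.3% of all genes that lay below both heterozygotes, and with the centring factor that was left in Sfp60F alone. The 2 members higher in both were Acp98AB and Spn28D, with means of 0.43 and 0.43. Of the 37 members with a reference length, 34 are in the shortest length class of genes, whose own median ratio was -0.06, with -0.02 in V966M and -0.13 in 51B.

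Testis genes showed a smaller lean. Of 32 spermatid and testis genes, 16 were lower in both homozygotes (50%, beside 30.1% of all genes), 7 higher in both and 9 opposite, with a median of -0.07. The spermatid gene dj had 22.0 and 26.9 FPKM in the homozygotes, against 41.4 and 38.5 FPKM in the heterozygotes (mean -0.60 ± 0.04, SD, n = 2 alleles), and Mst84Dd and janB had means of -0.46 and -0.55. In all 3, chosen among the lowest of the list, both homozygotes lay below both heterozygotes on deposited values, beside 16.3% of all genes, and in Mst84Dd no longer so with the median ratio scaling.

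Digestive enzyme genes were lower in both homozygotes with larger ratios in 51B. Of 31 protease and carbohydrase genes, 21 were lower in both (67.7%, beside 30.1% of all genes), 3 higher in both and 7 opposite, with medians of -0.09 in V966M and -0.46 in 51B. Among Jonah proteases, Jon25Bii had 20.7 and 9.73 FPKM in the homozygotes, against 37.5 and 26.8 FPKM in the heterozygotes. For Jon74E the ratio was -0.29 in V966M and -3.06 in 51B, and for Jon44E -0.35 and -2.32. The amylase genes Amy-p and Amy-d, near-identical copies that digest starch, had mean ratios of -0.42 and -0.46. The trypsin genes ran from -0.25 for betaTry to 0.15 for gammaTry, apart from zetaTry at -0.58, beside a median of -0.26 for the list. Here 24 of the 31 members are in the shortest length class of genes, of which 36.3% were lower in both.

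Larval serum and fat body genes were mostly higher in both homozygotes. The list holds genes for storage proteins that the larval fat body makes and that persist for some time after eclosion. It also holds genes that encode no storage protein, among them Fbp1, Rfabg and fit. Of 11 members, 7 were higher in both (63.6%, beside 30.1% of all genes), 2 lower in both and 2 opposite. The medians were 0.36 in V966M and 0.58 in 51B. At an unadjusted p below 0.05 by limma, 6 were higher and 2 lower, beside 2.52% and 5.53% of all genes. Lsp1alpha had 9.47 and 11.5 FPKM in the homozygotes, against 7.22 and 7.29 FPKM in the heterozygotes (mean 0.56 ± 0.05, SD, n = 2 alleles). Lsp2 had 90.5 and 298 FPKM in the homozygotes, against 74.5 and 112 FPKM in the heterozygotes. Fbp1, the receptor gene for storage proteins, and Fbp2 had means of 0.46 and 0.51. In Lsp1alpha both homozygotes lay above both heterozygotes, as in 1.93% of all genes on deposited values and 11.6% with the centring factor. Named members of the list were chosen by their ratios or after their values were seen, which favours such separation. The V966M homozygote lay below the 51B heterozygote in Lsp2. The 2 lower members were Rfabg, on chromosome 4, and fit.

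Cuticle genes, which are also active around eclosion, were higher in both homozygotes more often than lower in both. Of 58 cuticle protein genes, 24 were higher in both homozygotes (41.4%, beside 30.1% of all genes), 6 lower in both and 28 opposite, with a median of 0.10. Within 51B alone, intervals were separate for 9 higher and 8 lower members. Cpr67Fb had 10.8 and 29.4 FPKM in the homozygotes, against 8.37 and 9.21 FPKM in the heterozygotes. Edg91 had 2.92 and 3.72 FPKM in the homozygotes, against 2.08 and 1.77 FPKM in the heterozygotes. In both genes the homozygotes lay above both heterozygotes, as in 1.93% of all genes on deposited values and 11.6% with the centring factor. Among fasting and insulin response genes, 7 of 16 were higher in both homozygotes (43.8%, beside 30.1% of all genes) and 3 lower in both. Pepck, which encodes the enzyme of gluconeogenesis, had 632 and 958 FPKM in the homozygotes, against 587 and 407 FPKM in the heterozygotes. In Pepck both homozygotes again exceeded both heterozygotes, beside the same shares of all genes. Named members of both lists were chosen by their ratios or after their values were seen, which favours such separation.

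**Figure D5:**
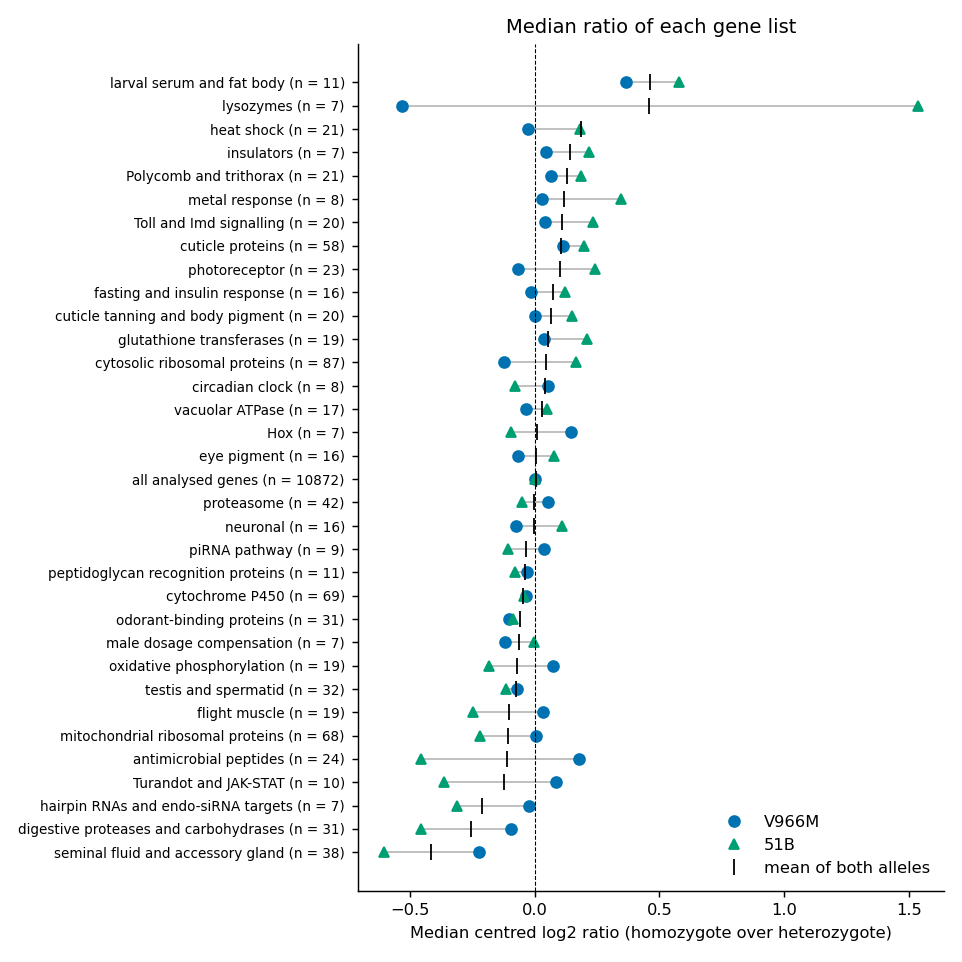
Median centred log2 ratio of homozygote over heterozygote (x axis) for every gene list with at least 7 analysed members (y axis, with the number of genes), in V966M (circles), in 51B (triangles) and for the mean of both alleles (vertical ticks). Seminal fluid genes lie lowest and larval serum and fat body genes highest in the mean, and lysozyme genes have the widest gap between alleles, -0.53 in V966M and 1.54 in 51B.

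Immune effector genes gave no common direction. Of 24 antimicrobial peptide genes, 4 were higher in both homozygotes, 7 lower in both and 13 opposite, beside 30.1%, 30.1% and 39.8% of all genes. The median was 0.18 in V966M and -0.46 in 51B. AttC, an attacin gene, had 28.3 and 2.03 FPKM in the homozygotes, against 62.4 and 7.16 FPKM in the heterozygotes (mean -1.19 ± 0.45, SD, n = 2 alleles). Within each stock AttC was lower in the homozygote with separate intervals, but the stocks differed so much that the classes overlapped. DptB and CecA1 were lower in both too, with means of -0.89 and -0.86. Peptidoglycan recognition protein genes, the sensors of bacterial cell wall, were lower in both in 6 of 11 cases (54.5%, beside 30.1% of all genes). PGRP-SB1 had ratios of -0.35 in V966M and -2.06 in 51B. In the Toll and Imd signalling pathways that drive these genes, 7 of 20 members were higher in both homozygotes, 1 lower in both and 12 opposite. The 35% higher in both is close to the 30.1% of all genes, whereas the 5% lower in both is below the 30.1% of all genes. The median of the mean ratio was 0.11, with 0.04 in V966M and 0.23 in 51B. Rel, the NF-kappaB factor of the Imd pathway, had ratios of 0.20 and 0.68. Rel shares its locus with Nmdmc, described above.

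Chromatin regulators of the Polycomb and trithorax groups, which keep developmental genes off or on, were slightly higher in both homozygotes. Of 21 members, 15 were higher in both (71.4%, beside 30.1% of all genes), 3 lower in both and 3 opposite, with a median of 0.13. Their largest mean ratios were 0.34 for osa, a chromatin remodelling subunit gene, and 0.32 for Sce, a subunit gene of the Polycomb complex PRC1. The lowest was pho, a DNA-binding Polycomb gene on chromosome 4, with 5.10 and 4.61 FPKM in the homozygotes, against 9.17 and 6.05 FPKM in the heterozygotes. In pho both homozygotes lay below both heterozygotes as deposited but not with the centring factor, whereas its paralogue phol on 3L had a mean of 0.18. Of 7 insulator protein genes, 4 were higher in both homozygotes (57.1%, beside 30.1% of all genes) and 0 lower in both. Means were 0.14 for Trl and 0.27 for CTCF. Among Polycomb and trithorax genes 14 of 21 are in the longest length class of genes, whose median ratio was 0.06 and of which 40.9% were higher in both.

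Housekeeping lists gave small medians. Cytosolic ribosomal protein genes had medians of -0.12 in V966M and 0.17 in 51B, with 57 of 87 of opposite sign (beside 39.8% of all genes). Mitochondrial ribosomal protein genes were lower in both homozygotes in 30 of 68 cases (44.1%, beside 30.1% of all genes) and higher in both in 8. The median was -0.11, with 0.007 in V966M and -0.22 in 51B. Of the 68 members, 52 are in the shortest length class of genes, of which 36.3% were lower in both. Proteasome genes had a median of -0.003 and vacuolar ATPase genes one of 0.03. Heat shock genes, which answer stress, had a median of 0.19, with -0.03 in V966M and 0.18 in 51B. Opposite signs were found in 11 of 21, beside 39.8% of all genes. Of these 21 genes 18 lie on chromosome 3, and the other 3 had a median of -0.04.

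Genes used as markers on balancers or in fly stocks are given here by their levels. The gene twi, whose promoter drives GFP on the V966M balancer, had 9.81 and 24.3 FPKM in the homozygotes, against 9.37 and 14.8 FPKM in the heterozygotes. That transgene makes GFP and not twi RNA, so the level of twi says nothing of the balancer. The pigment gene y had 8.30 and 1.01 FPKM in the homozygotes, against 12.2 and 3.53 FPKM in the heterozygotes, and shares its locus with 13 table entries including itself. Ser and Sb, whose dominant marker alleles need not change RNA level, had mean ratios of -0.08 and -0.04. The body colour gene e, which neither balancer label names, had ratios of -0.35 in V966M and 1.01 in 51B.

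Of the 4328 genes of opposite sign, 24 had separate intervals in both alleles. Among these, CG13422 had 183 and 8.76 FPKM in the homozygotes, against 108 and 39.8 FPKM in the heterozygotes, with a 51B ratio of -2.14 and a ratio of opposite sign in V966M. Dro, the antimicrobial peptide drosocin, had 27.5 and 65.2 FPKM in the homozygotes, against 58.1 and 17.5 FPKM in the heterozygotes, ratios of -0.80 and 1.76. CG8483 had ratios of -0.83 and 1.43. Lysozymes, gut enzymes that cut bacterial cell walls, had opposite signs in 5 of 7 cases (beside 39.8% of all genes), lower in the V966M homozygote and higher in the 51B homozygote. LysB had 288 and 459 FPKM in the homozygotes, against 527 and 149.6 FPKM in the heterozygotes. LysC, LysD, LysE, LysS and LysP share a locus, and some of them near-identical sequence, so their single values are uncertain. LysX was higher in both homozygotes, with 1.94 and 3.14 FPKM in the homozygotes, against 1.20 and 0.884 FPKM in the heterozygotes, and LysP, in the shared locus, was listed as lower in both.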

How the data were processed

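Total RNA was isolated with Trizol and made into Illumina libraries, per the labels' protocols. TopHat and Cufflinks with build dm3 are named in the submitters' processing notes, with no version; annotation, strand setting and interval level were not given in the sources. The authors deposited 1 FPKM value per gene and genotype, with an interval and a quantification status, per the file headers, and how 2 runs per genotype were combined is not given. FPKM values are not counts, so no count model was used. Genes with status OK in all 4 genotypes (13197 of 13990) and a mean of at least 1 FPKM were kept, 3882 of which share a locus. The median homozygote minus heterozygote difference in log2(FPKM + 1) was subtracted from each homozygote, which is division by a centring factor of 0.842 in V966M and 1.05 in 51B; interval bounds were divided by the same factor. The test was limma 3.58.1 in R 4.3.3 on log2(FPKM + 1), with zygosity and allele as terms. It used a variance trend and Benjamini-Hochberg adjustment over 10872 genes. A run on simulated data drew its variances from the fitted prior. It thus met the assumptions of the test and cannot show whether they hold here. Same-numbered samples pair because they carry the same allele, and their deviations from the class means correlated at 0.647. An alternative dropped this replicate block. Exonic lengths came from a later annotation by symbol and matched 98.5% of genes. Loci are in dm3, counted from 1.

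The genes compared and the lists were chosen with earlier results of these data known. Named genes were AGO2, the 15 highest and 15 lowest in both alleles by the smaller ratio, 5 of opposite sign, up to 3 members per list of the same sign, and all siRNA, hairpin and balancer genes. Other named genes, among them those of chromosome 4 and pericentric regions, were chosen after their values were seen. P-values rest on the spread between 2 alleles, with 1 residual degree of freedom per gene, and on 4.19 degrees of freedom from the prior over genes. They measure no spread among flies of 1 genotype. Alternatives changed the scaling, pseudocount, filter, block, trend, shared loci, chromosome 3 genes and left-out samples.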

Additional observations from a re-analysis of the deposited data

Results flagged for a closer look

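These genes had separate deposited intervals in both alleles and opposite signs, and the difference between alleles was not tested. The V966M ratio minus the 51B ratio was 3.71 for CG33498, whose level was near 0 in the 51B homozygote and the V966M heterozygote and which shares its locus, and 3.14 for CG13422. It was -2.57 for Dro, -2.26 for CG8483, -2.16 for LysB, -2.46 for LysD and -2.40 for LysE. The lysozymes LysD and LysE share a locus and near-identical sequence, so they are not separate observations.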

How the results depend on the processing

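The blocked fit called 0 genes, and so did the fits with no replicate block, without a variance trend, with the median ratio scaling, with a pseudocount of 0.1 FPKM, with a mean of at least 5 FPKM and without chromosome 3 or shared-locus genes. With no replicate block, 84 genes had an unadjusted p below 0.05. A pseudocount of 5 FPKM gave 20 calls, no minimum FPKM gave 3, and values as deposited, where the offset between alleles enters every residual, gave 106. Leaving out 1 sample, without block, gave 0 calls in each of the 4 fits. As deposited, 448 genes were higher in both homozygotes, 4 were at least 2-fold lower and 4 opposite, and separate intervals were found for 6 higher, 128 lower and 177 opposite. Genes at least 2-fold higher, lower and opposite numbered 6, 6 and 2 with a pseudocount of 0.1 FPKM and 1, 0 and 0 with 5 FPKM, which also gave 13 higher and 38 opposite genes with separate intervals. With a mean of at least 5 FPKM, 0 were 2-fold lower and 1 opposite, and with no minimum 1 opposite. Without chromosome 3, same-sign counts were 1842 higher and 1842 lower with 2405 opposite, and 13 higher and 14 opposite had separate intervals. Without shared loci they were 2127, 2127 and 2736, with 1, 0 and 1 gene at least 2-fold and 13 higher and 13 opposite with separate intervals. Both settings analysed fewer genes. Of the main setting's genes with separate intervals, 8 of 21 higher and 10 of 24 opposite ones lie on chromosome 3. Those that share a locus numbered 8 of 21 and 11 of 24. Leaving out chromosome 4 and pericentric genes gave 33 lower genes with separate intervals.

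The chromosome 4 median lay between -0.48 and -0.29 over the 8 scaling, pseudocount and filter alternatives, and was -0.38 in either allele alone. With 1 sample left out it ran from -0.61 to -0.20. Directions that turned under other settings were those of means near 0: Sox102F (-0.068 as deposited), ey (-0.074 as deposited, -0.022 with the median ratio scaling and -0.011 with a pseudocount of 0.1 FPKM), CG33498 (0.0051 with a pseudocount of 5 FPKM) and Sb (0.023 with 5 FPKM). Leaving out 1 of 4 samples sets the alleles against each other, and 37 of 103 named genes then turned in at least 1 fit. This happened in 28 genes without the 51B homozygote, 14 without the V966M heterozygote, 10 without the 51B heterozygote and 3 without the V966M homozygote. Genes of opposite sign between alleles ran from -0.80 to 1.76 for Dro, -0.62 to 1.54 for LysB, -0.53 to 1.62 for LysC, -0.74 to 1.72 for LysD, -0.80 to 1.60 for LysE, -0.42 to 1.15 for LysS, -2.75 to 1.59 for CG13422, -1.90 to 1.81 for CG33498 and -0.83 to 1.43 for CG8483. Others ran from -0.19 to 0.21 for Sox102F, -0.14 to 0.11 for ey, -0.39 to 0.69 for gammaTry, -1.30 to 0.36 for Amy-d, -1.29 to 0.44 for Amy-p, -2.88 to 0.50 for AttC, -0.33 to 0.64 for CG4068, -0.016 to 5.67 for CG42529 and -1.45 to 0.023 for CG6910. Ranges were -2.68 to 0.90 for DptB, -2.16 to 0.66 for LysP, -0.25 to 0.46 for MtnA, -1.004 to 0.49 for betaTry, -0.15 to 0.43 for loqs, -0.29 to 0.12 for r2d2, -0.17 to 0.028 for roX2, -3.50 to 0.40 for AGO2 and -0.66 to 0.16 for ATPsyn-beta. The remaining ranges were -1.81 to 0.062 for CecA1, -2.96 to 0.27 for Jon44E, -4.06 to 0.70 for Jon74E, -0.42 to 0.65 for MtnB, -2.87 to 0.45 for PGRP-SB1, -0.39 to 1.04 for e, -0.37 to 1.08 for mus308, -0.13 to 1.01 for twi and -1.91 to 0.39 for y. For zetaTry the range was -1.40 to 0.22. The cause of these shifts was not tested beyond what the settings themselves change. With 1 value per genotype and unknown depth, a difference of a single gene smaller than its deposited intervals could not be resolved.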
